A study of Mus musculus with 2 samples.

Results

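The population described here is a group of 1235 macrophages, labelled as recruited, from *WT* quadriceps 1 day after acute injury. In these cells *Pf4* was the dominant transcript of the pair *Pf4* and *Vcan*, and whether they were recruited was not tested. They were chosen by their own transcript counts. A cell was selected on at least 1 unique molecular identifier (UMI, a count of a captured transcript) of *Fcgr1*, the gene of CD64, and on *Lyz2* at 0.3% or more of its UMIs. *S100a8* and *S100a9* had to be below 2% of its UMIs, *Col1a1*, *Col1a2*, *Col3a1* and *Dcn* below 0.3%, *Cd74* and the MHC class II genes *H2-Aa*, *H2-Eb1* and *H2-Ab1* below 0.5%, and *Cd163* and *Lyve1* below 3 UMIs together. Among the 2476 day 1 cells that passed these gates, the *Pf4*-dominant cells had at least 5 *Pf4* UMIs and more *Pf4* than *Vcan* UMIs. They made up 18.3% (95% CI 17.4 to 19.3) of the 6735 day 1 cells that passed the filters, of 11362 cells in the series. The same gates held 740 *Vcan*-dominant cells, with at least 5 *Vcan* UMIs and more *Vcan* than *Pf4*, and 501 cells with neither gene dominant. Macrophages with *Cd163* and *Lyve1* UMIs at or above the limit numbered 89.

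The study asked how macrophages of injured skeletal muscle differ in activation. Mononuclear cells were taken from quadriceps of 14-week-old male wild-type C57BL/6J mice 1 day or 3 days after intramuscular injection of BaCl2, a salt that kills muscle fibres. Cells of 5 mice were pooled for 1 library per day, sorted on light scatter and cryopreserved before capture, so there were no replicates, no test was possible, and differences between mice cannot be seen. No uninjured muscle was analysed here.

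CXCL4, the product of *Pf4*, and CXCL7, which is cut from the product of *Ppbp*, are chemokines best known from the granules of platelets. CXCL7 attracts neutrophils through CXCR2, whereas CXCL4 lacks the motif that binds this receptor. After muscle injury, circulating Ly6C-high monocytes enter the tissue through CCR2, become macrophages that clear dead fibres, and later take on repair functions. *Arg1* encodes arginase 1, which turns arginine into ornithine, *Ccl24* encodes an eosinophil-attracting chemokine, and *Areg* encodes amphiregulin, an EGF receptor ligand. *Vcan* encodes versican, a proteoglycan that monocytes express.

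Levels are given as UMIs of a gene per 1000000 UMIs (CPM), summed over the cells of a group. Intervals are 95% exact Poisson for CPM, Clopper-Pearson for shares of cells and exact binomial for log2 ratios, and they cover counting error only. The library of day 1 held 74852240 UMIs and that of day 3 held 102565783. The *Pf4*-dominant cells held 16715729 UMIs, with a median of 12325 UMIs and 2778 genes per cell, against 11182 UMIs in *Vcan*-dominant cells and 9429 in cells of neither kind. A rule of at least 5 *Pf4* UMIs is met more easily by cells with more UMIs. When each cell was thinned to 3000 UMIs first, 819 cells met the whole rule. All its limits were applied to the thinned cells, also that of 1 *Fcgr1* UMI, a gene with a median of 6 UMIs before thinning. How much of the fall came from each limit was not tested. Of the called barcodes, 0 were shared by the libraries.

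The *Pf4*-dominant cells carried the genes of macrophages. *Adgre1*, the gene of F4/80, was at 242 CPM, *Csf1r* at 219 CPM, *Cd68* at 750 CPM and *C5ar1* at 842 CPM. UMIs of *Adgre1* were found in 84.5% of the cells and of *Cd68* in 99.4%. *Ccr2*, the receptor of recruited monocytes, was at 355 CPM and was found in 91.0% of the cells. Of the resident macrophage genes *Timd4* had 4 UMIs over all 1235 cells and *Vsig4* had 0, which allows a level of up to 0.179 CPM. Other genes of that list were present, with *Mrc1* found in 72.4% of the cells, *Folr2* in 24.8% and *Cbr2* in 24.0%. The marker *Areg* of the label was found in only 10.9% of the cells, *Ppbp* in 44.7% and *Ccl24* in 49.0%, and a cell with no UMI of a gene is not shown to lack its transcript.

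In the chosen cells *Pf4* ranged from 5 to 699 UMIs per cell, with a median of 69 and quartiles of 28.5 and 143. *Vcan* had a median of 5 UMIs, and 147 cells, or 11.9%, had none. The plot of *Pf4* against *Vcan* in single cells shows a wide range of *Pf4* at each *Vcan* count and no gap at the limits of the rule. With exactly 5 *Pf4* UMIs there were 15 cells, at 522.7 CPM of *Pf4* and 41.8 CPM of *Ppbp*. Just outside, 13 cells had 4 *Pf4* UMIs and more *Pf4* than *Vcan*, at 421 CPM of *Pf4* and 737 CPM of *Ppbp*. Along the other limit, 30 cells had 1 or 2 *Pf4* UMIs more than *Vcan* UMIs, 16 cells with at least 5 *Pf4* UMIs had equal numbers, and 21 had 1 or 2 fewer. *Arg1* was at 1048 CPM in the first of these, at 1597 CPM in the second and at 2333 CPM in the third.

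**Figure D1:**
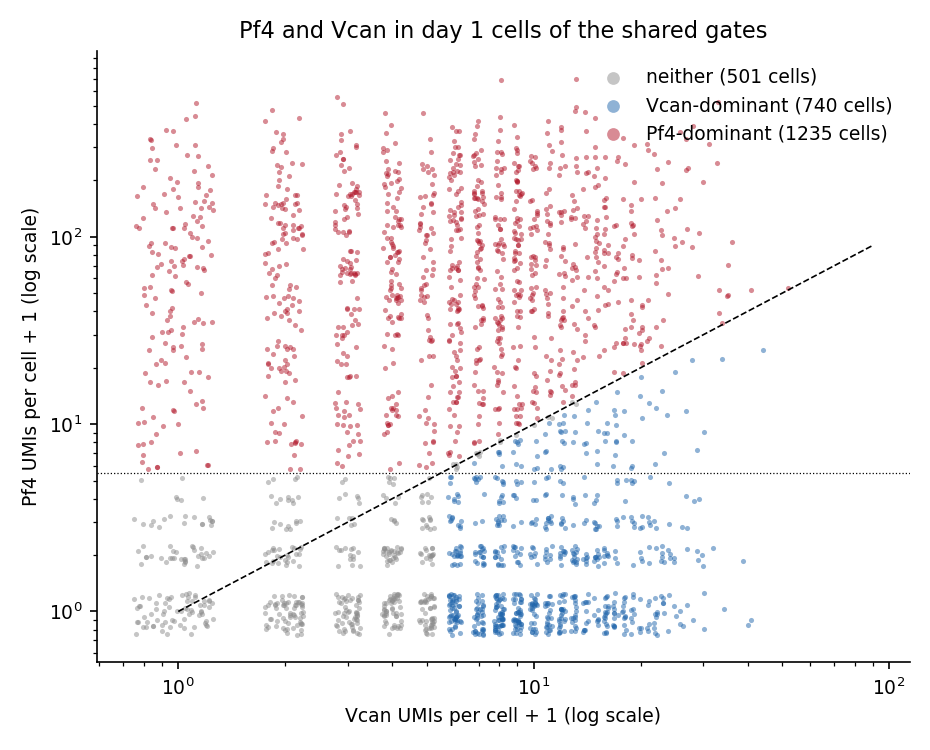
*Vcan* UMIs plus 1 (x axis, log scale) against *Pf4* UMIs plus 1 (y axis, log scale) in the 2476 day 1 cells of the shared gates, 1 point per cell with a small random shift. Above the dotted line (5 *Pf4* UMIs) and the dashed line (equal UMIs) lie the 1235 *Pf4*-dominant cells, which had from 0 to 51 *Vcan* UMIs.

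The limit on *Lyz2* kept out more cells with this pattern than any other single gate. In all, 384 day 1 cells met every other part of the rule and failed only on *Lyz2*, and these had 10889 CPM of *Pf4*, 1301 CPM of *Ppbp* and 1716 CPM of *Arg1*. Only *Fcgr1* was missing in 51 cells, at 6429 CPM of *Pf4* and 484 CPM of *Ppbp*. The *Cd163* and *Lyve1* limit alone kept out 85 cells, the MHC class II limit 90, the *S100a8* and *S100a9* limit 17 and the collagen limit 6. The number of *Pf4*-dominant cells would be 1619 without the *Lyz2* limit.

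*Pf4* and *Ppbp* were high in the same classes of day 1 cells. *Pf4*, on which the cells were selected, was at 7573 CPM (95% CI 7532 to 7615) in *Pf4*-dominant cells, at 127 CPM in *Vcan*-dominant cells and at 96.5 CPM in cells of neither kind. *Ppbp*, which the rule did not name, was at 825 CPM (95% CI 811 to 839), 95.5 CPM (95% CI 89.2 to 102) and 48.3 CPM. The log2 ratio of *Ppbp* between *Pf4*- and *Vcan*-dominant cells was 3.11 (95% CI 3.01 to 3.21), and since these classes were cut on a gene of the same cells it is a description and not a test. It was 2.60 where 10 UMIs were the minimum and 4.67 where the dominant gene had at least 2 times the UMIs of the other. The *Cd163*/*Lyve1* macrophages had higher levels of both genes, at 12485 CPM of *Pf4* and 1238 CPM of *Ppbp*. Cells with no *Fcgr1* or low *Lyz2*, the class that holds the 384 cells above, had 5773 and 650 CPM.

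There were 9.18 *Pf4* UMIs per *Ppbp* UMI in *Pf4*-dominant cells, 10.1 in *Cd163*/*Lyve1* macrophages and 8.88 in cells with no *Fcgr1* or low *Lyz2*. The MHC class II, *S100a8*/*S100a9* and collagen classes had 15.7, 7.57 and 6.74. In *Vcan*-dominant cells there were 1.33, but these were chosen to have less *Pf4* than *Vcan*. The rule thus set the *Pf4* side of that contrast, and it also bore on the *Pf4* count of the *Pf4*-dominant cells. Barcodes with at most 100 UMIs, which hold free RNA, had 5183 CPM of *Pf4* and 345 CPM of *Ppbp*. Of all *Pf4* UMIs in filtered day 1 cells, 48.4% (95% CI 48.2 to 48.6) lay in the *Pf4*-dominant cells, and of all *Ppbp* UMIs 47.3% (95% CI 46.7 to 47.9), while these cells held 23.5% of all UMIs. A further 34.2% of *Pf4* and 34.6% of *Ppbp* UMIs lay in the class with no *Fcgr1* or low *Lyz2*. The share of *Pf4* in the *Pf4*-dominant cells follows from their selection.

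**Figure D2:**
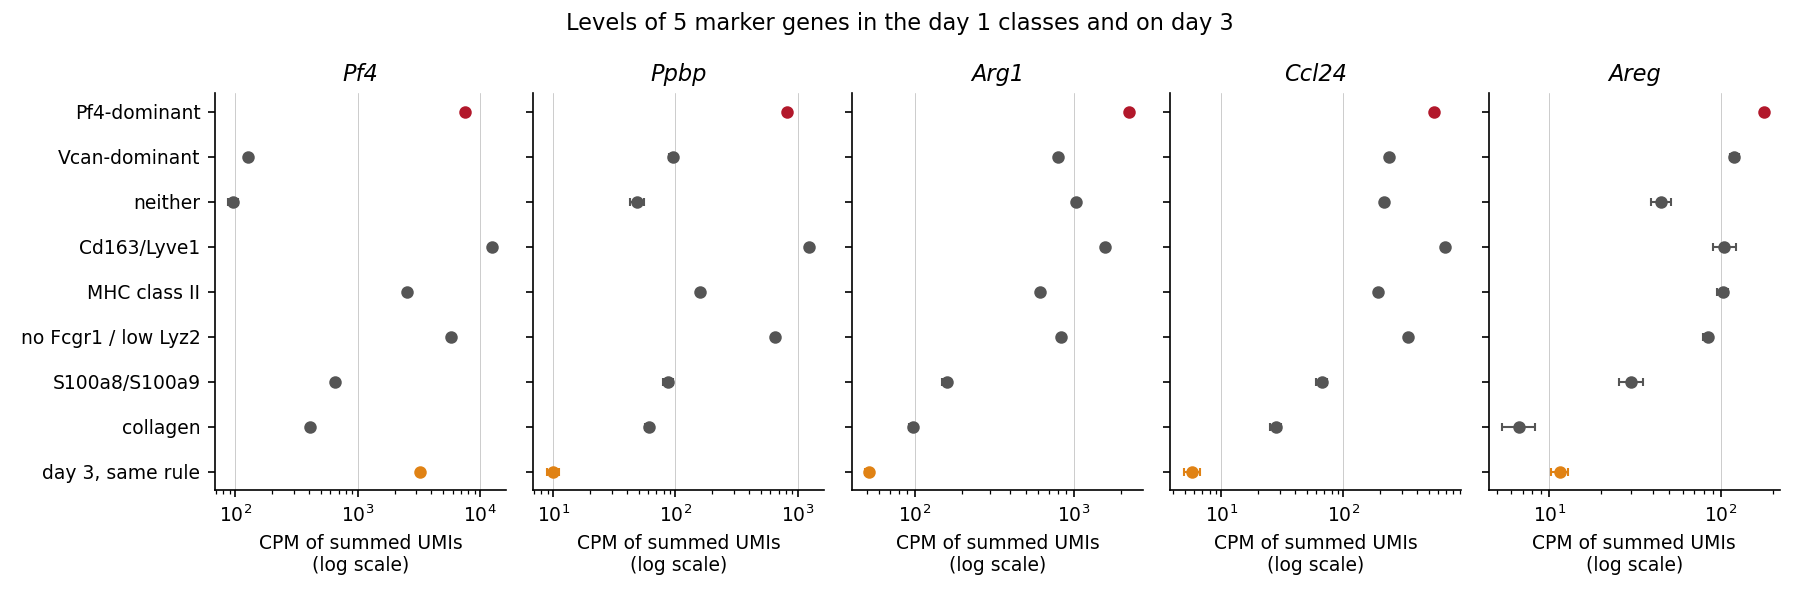
CPM of summed UMIs (x axis, log scale) of *Pf4*, *Ppbp*, *Arg1*, *Ccl24* and *Areg* in 8 classes of day 1 cells and in day 3 cells chosen by the same rule (y axis), with bars for 95% exact Poisson intervals, most of which are narrower than the points. The *Pf4*-dominant cells (red) had 2233 CPM of *Arg1*, the highest of the classes plotted, and the day 3 cells (orange) had 51.4 CPM.

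Transcripts of platelets themselves were at or near 0 in the *Pf4*-dominant cells. The 14 platelet and megakaryocyte markers summed to 12 UMIs, or 0.718 CPM, and 9 of them, among these *Gp1ba*, *Gp9* and *Tubb1*, had no UMI. In *Vcan*-dominant cells the same list summed to 1.21 CPM. Of the 8 classes of day 1 the *Pf4*-dominant cells had the lowest sum in CPM and the collagen-expressing cells, at 11.5 CPM (141 UMIs), the highest. In UMIs they were not the lowest, since the smaller class of *Cd163*/*Lyve1* macrophages had 4.

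After thinning each cell to 3000 UMIs, *Ppbp* was found in 33.7% (95% CI 31.0 to 36.4) of *Pf4*-dominant cells, in 5.97% (95% CI 4.37 to 7.93) of *Vcan*-dominant cells and in 4.66% of collagen-expressing cells, a type not known to make it. Without thinning the shares were 44.7%, 9.46% and 10.2%, at median depths of 12325, 11182 and 26910.0 UMIs. The thinned share in *Vcan*-dominant cells was close to that in the collagen-expressing cells. Ambient RNA made up at most 5.06% of the UMIs of *Vcan*-dominant cells, and the source of their *Ppbp* UMIs was not tested. *Ppbp* was unevenly spread among the *Pf4*-dominant cells, since the 10% of cells highest in the gene held 70.4% of its UMIs. For *Pf4* this share was 32.4%, but the rule asked for at least 5 *Pf4* UMIs in each cell and for no *Ppbp*. The lower share of *Pf4* thus follows in part from the selection.

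*Ppbp* and *Pf4* are neighbours. In the RefSeq annotation of build GRCm38.p6 (mm10, as named in the submitters' processing notes), *Ppbp* lies at chr5:90768518-90770063 and *Pf4* at chr5:90772435-90773383, with 2371 bases between the genes. *Cxcl5* (chr5:90759298-90761625) lies before them and *Cxcl3* (chr5:90786101-90788093), *Cxcl15*, *Cxcl1* (chr5:90891245-90893121) and *Cxcl2* (chr5:90903899-90905938) after them, and the same stretch of 389135 bases ends with the EGF ligand genes *Epgn*, *Ereg* and *Areg* (chr5:91139599-91148432). The promoter windows of *Ppbp*, *Pf4* and *Cxcl3*, from 250 bases before to 50 bases after the annotated start, are shown because these neighbours were all high in the *Pf4*-dominant cells but differed by day. All are on the plus strand, at chr5:90768268-90768567, chr5:90772185-90772484 and chr5:90785851-90786150. Capitals mark matches on either strand to 6 motifs. The motif of the AP-1 factors was searched as TGANTCA, and that of the GATA factors as AGATAA. The myeloid factor PU.1 was searched by the letters GAGGAA, and the C/EBP factors by the letters TTNNGNAA. The TATA box, which lies just before the start of many regulated genes, was searched as TATAAA, and the sixth motif was that of kappa B.
Ppbp: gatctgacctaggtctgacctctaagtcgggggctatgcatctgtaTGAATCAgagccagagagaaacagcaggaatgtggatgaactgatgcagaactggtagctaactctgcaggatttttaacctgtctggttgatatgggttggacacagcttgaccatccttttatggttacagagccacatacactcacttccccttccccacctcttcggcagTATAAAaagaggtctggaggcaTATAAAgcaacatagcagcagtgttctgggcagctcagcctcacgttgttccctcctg
Pf4: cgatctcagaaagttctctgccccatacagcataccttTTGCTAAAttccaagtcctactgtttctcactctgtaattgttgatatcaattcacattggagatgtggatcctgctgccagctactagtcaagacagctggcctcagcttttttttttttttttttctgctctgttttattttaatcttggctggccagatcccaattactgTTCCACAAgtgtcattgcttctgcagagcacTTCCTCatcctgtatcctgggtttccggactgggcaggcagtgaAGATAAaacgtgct
Cxcl3: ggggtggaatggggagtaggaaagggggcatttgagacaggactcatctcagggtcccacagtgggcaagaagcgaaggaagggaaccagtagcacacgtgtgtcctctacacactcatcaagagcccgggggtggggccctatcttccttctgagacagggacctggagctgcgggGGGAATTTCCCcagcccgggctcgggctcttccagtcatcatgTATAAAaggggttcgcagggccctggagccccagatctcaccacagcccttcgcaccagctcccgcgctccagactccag

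The *Ppbp* window held 1 AP-1 match, at a motif that reads the same on both strands, beginning 204 bases before the start, and 2 TATA box matches. AP-1 matches were found in 7.81% of the 32851 promoter windows of the table and TATA box matches in 13.6%. The *Pf4* window held no TATA box match, and it held 2 C/EBP matches (40.7% of all windows held any), 1 PU.1 match (28.3%) and 1 GATA match (11.2%) within the first bases of the transcript. The *Cxcl3* window held overlapping kappa B matches on both strands (20.7%) 73 bases before the start, and 1 TATA box match. The windows of *Cxcl1* and *Cxcl2* held kappa B matches as well. These matches are letters in a window, and binding was not measured. The promoter table had no entry for *Arg1* or *Ccl24*.

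Along this locus the levels summed over all cells differed between *Pf4*- and *Vcan*-dominant cells mainly at *Ppbp* and *Pf4*. *Cxcl3* was at 4231 CPM against 2030 CPM, a log2 ratio of 1.06 (95% CI 1.04 to 1.08). *Cxcl1* was at 2509 against 1505 CPM, and *Cxcl2* at 26368 against 22482 CPM, with log2 ratios of 0.74 and 0.23. All of these encode ligands of the neutrophil receptor CXCR2. *Cxcl5*, another such ligand, was at 68.4 CPM against 83.8 CPM, and *Cxcl15* had 1 UMI in all *Pf4*-dominant cells. However, 14 *Pf4*-dominant cells with at least 3 UMIs of fibroblast markers held 74.3% of the *Cxcl5* UMIs. The rest were at 18.1 CPM, a log2 ratio of -2.21 over *Vcan*-dominant cells, from which no cells were left out. At the far end, *Areg* was at 178 CPM against 120 CPM and *Ereg* at 4.79 against 4.75 CPM.

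**Figure D3:**
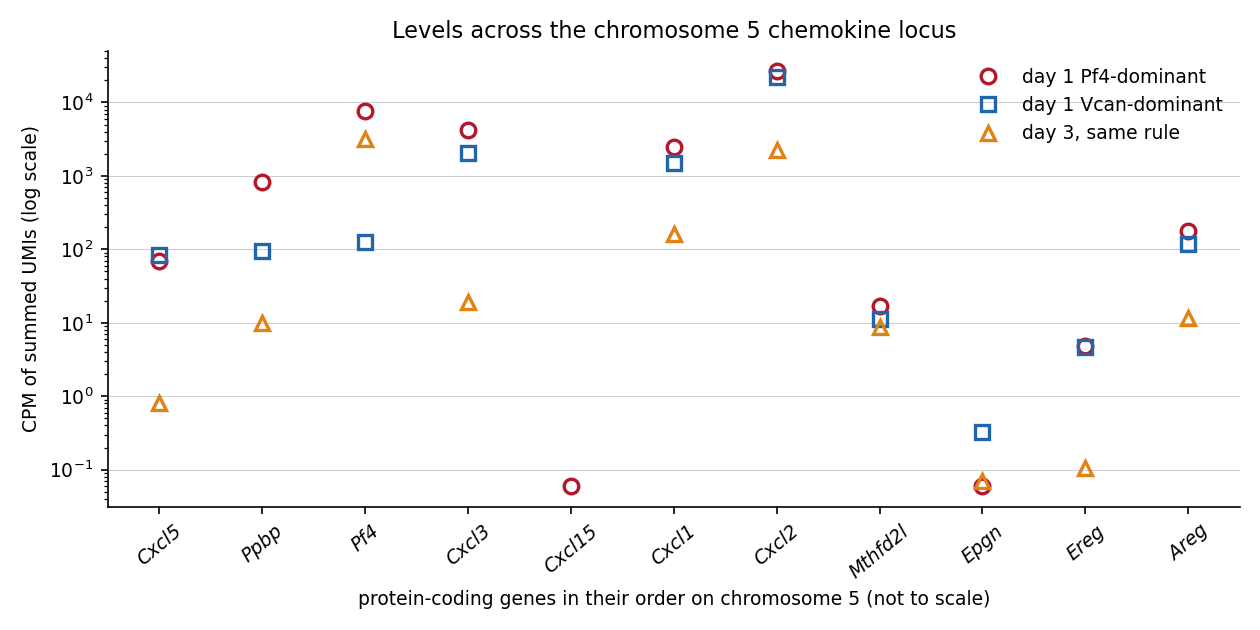
CPM of summed UMIs (y axis, log scale) of the 11 protein-coding genes from *Cxcl5* to *Areg* in their order on chromosome 5 (x axis, not to scale), in day 1 *Pf4*-dominant cells (circles), day 1 *Vcan*-dominant cells (squares) and day 3 cells of the same rule (triangles); groups with no UMI of a gene have no point. *Pf4* was at 3219 CPM on day 3, while *Ppbp* was at 9.96 CPM and *Cxcl3* at 19.3 CPM. In the *Pf4*-dominant cells, 74.3% of the *Cxcl5* UMIs lay in 14 cells with at least 3 UMIs of fibroblast markers.

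Arginase 1 was the other strong feature. *Arg1* was at 2233 CPM (95% CI 2210 to 2255) in *Pf4*-dominant cells, 796 CPM (95% CI 778 to 815) in *Vcan*-dominant cells, 1035 CPM in cells of neither kind and 1587 CPM in *Cd163*/*Lyve1* macrophages. The log2 ratio over *Vcan*-dominant cells was 1.49 (95% CI 1.45 to 1.52). The *Pf4*-dominant cells held 52.8% of all *Arg1* UMIs of day 1 cells. *Arg1* was found in 74.2% (95% CI 71.6 to 76.6) of them at 3000 UMIs, in 37.3% of *Vcan*-dominant cells and in 6.76% of collagen-expressing cells. *Ccl24* was at 554 CPM (95% CI 543 to 566) against 239 CPM, with a log2 ratio of 1.21 (95% CI 1.15 to 1.28). For *Areg* the log2 ratio was 0.57 (95% CI 0.47 to 0.67), and 7.87% against 6.24% of cells held a UMI at 3000 UMIs. The counting intervals of these shares, 6.43 to 9.52 and 4.61 to 8.24, do not cover differences between mice.

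Over the whole transcriptome the *Pf4*- and *Vcan*-dominant cells were alike. Of 6667 genes with at least 200 UMIs over both groups, 95 were at least 2-fold higher in *Pf4*-dominant cells, or 1.42%, and 79 at least 2-fold lower, or 1.18%. The median log2 ratio was -0.02. Since the rule cut the same cells on *Pf4* and *Vcan*, list counts in this comparison are set beside these shares as descriptions. The 12 genes with the highest ratios were *Ccl8*, *Folr2*, *Fcrls*, *Ppbp*, *Cbr2*, *Fblim1*, *Tmem8*, *Slc27a1*, *Nrp1*, *Ms4a7*, *Ccl12* and *Cd5l*. Among the 12 with the lowest were *Prg4*, *Mgst1*, *Ifitm6*, *Ccl5*, *Lcn2*, *Ly6c2*, *Itgal*, *Plac8*, *Casp6*, *Hp* and *Itgb7*.

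Several of the highest were at low levels and in few cells. *Ccl8*, a monocyte-attracting chemokine with a log2 ratio of 4.93, was at 28.5 CPM and was found in 2.67% of the *Pf4*-dominant cells. *Folr2*, the folate receptor beta gene of resident macrophages, was at 52.3 CPM in 24.8% of the cells, against 3.97 CPM in *Vcan*-dominant cells. With ambient UMIs subtracted the log2 ratio of *Ccl8* was 8.82, and that of *Folr2* was 4.71 in place of 3.70. Before subtraction *Ccl8* was found in only 0.541% of *Vcan*-dominant cells. Subtracted counts were not taken below 0 and 0.5 was added to each, so the size of the *Ccl8* ratio depends on this added count. *Cbr2* was at 49.0 CPM in 24.0% and *Fcrls* at 15.7 CPM in 9.64%. In contrast *Ms4a7*, a macrophage membrane protein, was found in 64.0% of the cells at 254 CPM, against 55.3 CPM in *Vcan*-dominant cells.

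Among chemokines, 4 of 9 measured genes of the CXC list were at least 2-fold higher (*Pf4*, *Ppbp*, *Cxcl3* and *Cxcl16*) and 0 lower, with *Pf4* chosen by the rule. Of the CC chemokines 4 of 10 were higher (*Ccl7*, *Ccl8*, *Ccl12* and *Ccl24*) and 1 lower (*Ccl5*). *Ccl7* and *Ccl12* encode ligands of CCR2, and they were at 3622 against 1411 CPM and at 397 against 98.5 CPM. *Ccl2*, the best known CCR2 ligand, was at 5420 against 3671 CPM, a log2 ratio of 0.56. *Ccl6* was at 7240 CPM and *Ccl9* at 4193 CPM, with ratios of 0.38 and 0.31. Of the receptors measured, 0 of 4 were 2-fold apart, and *Ccr2* was at 355 against 429 CPM.

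Of the 13 measured interleukin, TNF and related genes, 1 was at least 2-fold higher and 0 lower. The one higher was *Il10*, the gene of an anti-inflammatory cytokine, at 184 CPM (95% CI 177 to 190) against 68.6 CPM. *Il1b* was at 8535 CPM in *Pf4*-dominant and 8999 CPM in *Vcan*-dominant cells, *Tnf* at 413 and 327 CPM, and *Ptgs2*, the gene of cyclooxygenase 2, at 1468 and 1403 CPM. These 3 genes were less than 2-fold apart. At 3000 UMIs, 66.3% (95% CI 63.6 to 69.0) of *Pf4*-dominant cells held UMIs of both *Arg1* and *Il1b*, against 34.6% of *Vcan*-dominant cells and 5.83% of collagen-expressing cells. *Il1b* alone was found in 89.0% of *Pf4*- and 88.9% of *Vcan*-dominant cells, and *Arg1* alone in 74.2% and 37.3%. The joint shares of these 2 groups thus differed as those of *Arg1* did. Of the genes tied to arginine use and alternative activation, 2 of 8 measured were higher, *Arg1* and *Mrc1*, the mannose receptor gene, at 463 against 123 CPM. *Chil3* was lower at 1903 against 3237 CPM, short of 2-fold, and *Nos2*, the gene of inducible nitric oxide synthase, had 14 UMIs in all *Pf4*-dominant cells.

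Some macrophage genes were higher and some monocyte genes lower in the *Pf4*-dominant cells, and most members of either list were less than 2-fold apart. Of 15 macrophage identity genes 5 were at least 2-fold higher, namely *Ms4a7*, *Mertk* and the complement genes *C1qa*, *C1qb* and *C1qc*, and 0 were lower. *C1qa* was at 424 CPM against 145 CPM. Of 11 monocyte genes 5 were at least 2-fold lower (among them *Ly6c2*, *Plac8*, *Ifitm6* and *Hp*) and 0 higher. *Ly6c2*, a gene of the Ly6C antigen, was at 52.6 CPM (95% CI 49.2 to 56.2) against 218 CPM (95% CI 209 to 228), and *Plac8* at 142 against 514 CPM. Resident macrophage genes were higher in 4 of 5 measured (*Folr2*, *Cbr2*, *Selenop* and *Mrc1*). That list, like all lists here, was made with earlier results known.

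Genes of lipid handling were higher in 3 of 12 measured, with *Fabp5*, a fatty acid binding protein, at 1500 against 509 CPM, *Cd36*, a scavenger receptor, at 306 against 123 CPM, and *Abca1*, a cholesterol exporter. Of 10 lysosomal genes 3 were higher (*Ctsb*, *Lgmn* and *Cd63*), with *Ctsb*, the gene of cathepsin B, at 3696 against 1829 CPM. Of 7 genes of the clearance of dead cells 2 were higher, *Mertk* and *Trem2*. *Spp1*, the gene of osteopontin, was at 8689 against 4464 CPM, a log2 ratio of 0.96. *Hmox1*, which breaks down heme, was at 985 against 521 CPM, and 1 of 13 measured genes of iron and heme, *Slc48a1*, was 2-fold higher.

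Few other lists were apart. Of 19 measured genes of hypoxia and glycolysis 0 were 2-fold apart, of 20 transcription factors 0, of 6 heat shock genes 0, of 5 interferon response genes 0 and of 7 EGF ligands and growth factors 0. Of 12 matrix genes *Mmp14* and *Timp2* were higher and *Mmp8* lower, and of 8 coagulation genes *F7* was higher. *Fn1* was at 3183 CPM and *Thbs1* at 4847 CPM in *Pf4*-dominant cells, with log2 ratios of 0.23 and -0.18.

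**Figure D4:**
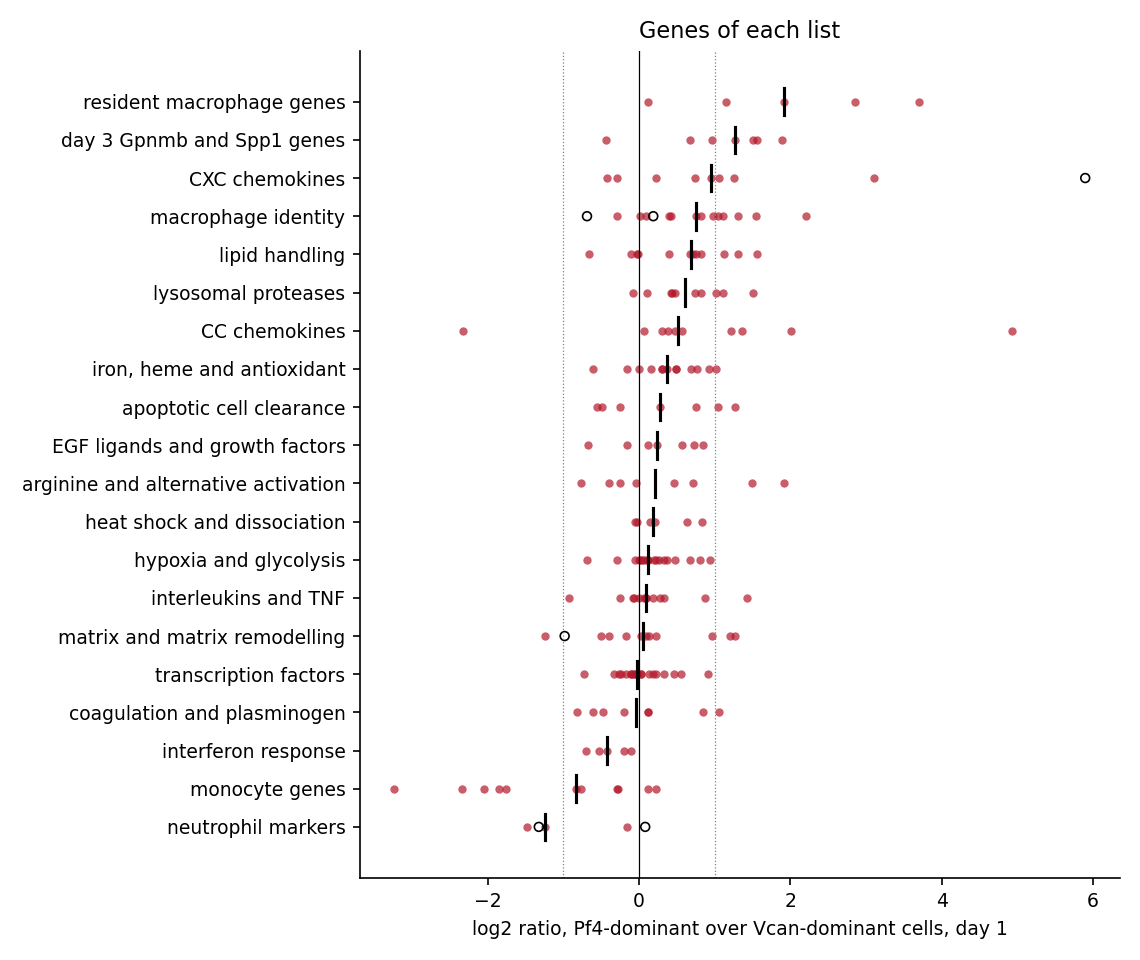
Log2 ratio of summed UMI levels in *Pf4*-dominant over *Vcan*-dominant day 1 cells (x axis) for each gene with at least 200 UMIs, by list (y axis), with black bars for list medians, dotted lines at 2-fold and open circles for genes the rule used. The medians run from -1.24 for the neutrophil markers to 1.91 for the resident macrophage genes, and the median over all genes was -0.02.

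Other genes were then set against the balance of *Pf4* and *Vcan*. The 2048 cells of the shared gates with at least 5 UMIs of *Pf4* and *Vcan* together were divided by the share of *Pf4* in that sum. In steps of 20% on this scale, from the lowest (595 cells) to the highest (1004 cells), *Ppbp* was at 31.2, 156, 330.1, 483 and 920.3 CPM, and *Arg1* at 663, 1099, 1550, 1817 and 2335 CPM. *Mrc1* was at 95.1, 219, 279, 370.2 and 485 CPM. These genes were higher at each step of a scale made from genes of the rule, and most cells lay in its lowest and highest steps. *Ly6c2* was lower at each step, at 247, 108, 86.0, 77.1 and 47.6 CPM, as was *Plac8*, at 603, 239, 185, 184 and 134 CPM. *Il1b* stayed between 8298 and 9869 CPM and *Areg* was highest in the second step, at 217 CPM. Cells between 40 and 60% numbered 127, and 51 of the *Pf4*-dominant cells had a *Pf4* share under 60%. Median UMIs per cell were 11076, 11385, 12091, 11852 and 12444 in the 5 steps, and the part of depth in these levels was not tested.

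**Figure D5:**
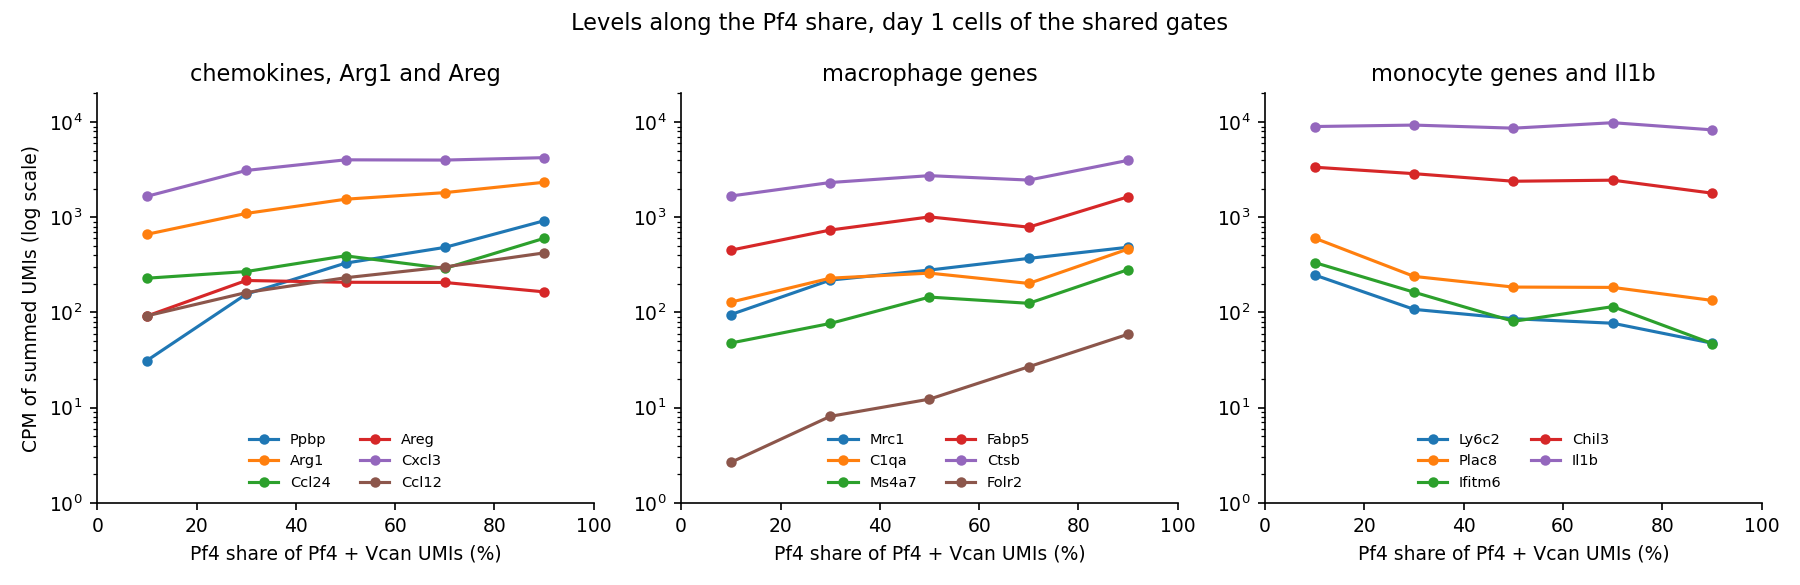
CPM of summed UMIs (y axis, log scale) in 5 equal steps of the *Pf4* share of *Pf4* plus *Vcan* UMIs (x axis, %), for 2048 day 1 cells of the shared gates. *Ppbp* runs from 31.2 to 920.3 CPM and *Ly6c2* from 247 to 47.6 CPM, while *Il1b* stays between 8298 and 9869 CPM.

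Within the *Pf4*-dominant cells, the level of *Pf4* itself went with other transcripts. In 4 groups of 308 or 309 cells, in order of *Pf4* level, *Ppbp* was at 236, 448, 1019 and 1656 CPM, *Ccl24* at 277, 373, 544 and 1065 CPM, and *Folr2* at 23.3, 37.2, 59.9 and 92.0 CPM. *Arg1* was at 1571, 2241, 2128 and 3071 CPM, and *Mrc1* at 298, 371, 509 and 692 CPM. *Il1b* was at 7687, 8979, 8670 and 8844 CPM, and *Il10* at 206, 127, 181 and 223 CPM. *Areg* was at 204, 182, 142 and 186 CPM, and *Spp1* at 9801, 8814, 8758 and 7253 CPM. Median UMIs per cell lay between 12142 and 12902 in these groups. The genes that differed from *Vcan*-dominant cells thus did not all follow *Pf4* within the population.

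The *Pf4*-dominant cells were also divided by their *Ppbp* UMIs. In 406 of the *Pf4*-dominant cells, or 32.9%, there were at least 3 *Ppbp* UMIs, and 683, or 55.3%, had none. *Pf4* was at 10022 CPM in the former and 5895 CPM in the latter, *Ccl24* at 691 and 478 CPM, and *Mrc1* at 563 and 394 CPM. Higher ratios were seen for *Ccl8*, *Cxcl14*, *Dcn*, *Cxcl5* and *Prg4*, with log2 values between 1.44 and 2.17, all transcripts found in under 10% of the cells. Rarer transcripts gave larger ratios, with *Mmp12*, the gene of a macrophage elastase, at 156 against 12 UMIs (log2 4.31, 95% CI 3.52 to 5.35) and found in 9 cells. In the other direction *Igf1*, a growth factor gene, had 2 against 66 UMIs, and *Cx3cr1*, the fractalkine receptor gene, had 11 against 84 UMIs. *Gpnmb*, a lysosomal membrane glycoprotein, was at 26.8 CPM in the cells with *Ppbp* and 46.5 CPM in those without.

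Fibroblast transcripts lay in few cells. Just 14 of the 1235 cells had at least 3 UMIs of the 8 fibroblast markers, with a median of 28123 UMIs, and they held 91.1% of the *Dcn* UMIs, 74.3% of *Cxcl5*, 69.3% of *Cxcl14* and 65.0% of *Prg4*. They held 0.972% of *Ppbp*, 1.20% of *Arg1* and 9.22% of *Ccl8* UMIs. Without such cells in either group the log2 ratio of *Ppbp* over *Vcan*-dominant cells was 3.09 and that of *Arg1* was 1.47. Of the cells with the highest Scrublet doublet scores, at the expected rate of 5.39%, 82 were *Pf4*-dominant, or 6.64% of them, and 55 were *Vcan*-dominant, or 7.43%.

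Of the neutrophil transcripts most were *S100a8*, with 7973 UMIs, and *S100a9*, with 4307 UMIs, both genes of the rule. The 12 neutrophil markers summed to 827 CPM in *Pf4*-dominant cells and 1612 CPM in *Vcan*-dominant cells, and ranged up to 79977 CPM in the *S100a8*/*S100a9* class. *Ly6g* and *Ngp* had no UMI and *Camp* had 2 in *Pf4*-dominant cells, but only 3 of the 12 markers had 3 UMIs or fewer. *Csf3r* had 205 UMIs in the cells with at least 3 *Ppbp* UMIs and 326 in those with no *Ppbp* UMI. *Cd177* had 104 and 180 UMIs in these cells. Markers of lymphocytes summed to 0.419 CPM, of mast cells, basophils and eosinophils to 0.538 CPM, of dendritic cells to 5.09 CPM, of muscle to 5.56 CPM and of endothelium to 15.8 CPM.

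The genes that varied most from cell to cell, by variance over mean at 3000 UMIs, were *Spp1*, *Fth1*, *Cxcl2*, *Il1b*, *Ccl4*, *Hmox1*, *Ccl2*, *Fabp5*, *Cxcl1* and *Ppbp*. *Spp1* had a variance 83.7 times its mean. Its quartiles over cells were 112 and 9441 CPM, with a median of 2306 CPM and a highest value of 117907 CPM. *Hmox1* had a median of 377 CPM and 59.9% of its UMIs in the top 10% of cells. *Fth1* and *Cxcl2* were found in nearly all cells, so their variation was one of level, whereas *Ppbp* had a median of 0. *Areg* was the least shared of the label's markers, with 99.6% of its UMIs in the top 10% of cells. UMIs of *Ppbp*, *Arg1* and *Ccl24* together were found in 11.2% of cells at 3000 UMIs, and of these with *Areg* in 1.14%.

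The *Cd163*/*Lyve1* macrophages of day 1 shared *Pf4* and *Ppbp* with the *Pf4*-dominant cells and differed in other genes. The levels of *Pf4* and *Ppbp* in *Pf4*-dominant cells over these macrophages had log2 ratios of -0.72 (95% CI -0.74 to -0.70) and -0.59 (95% CI -0.65 to -0.52). *Il1b* was higher in *Pf4*-dominant cells at 8535 against 3728 CPM, *Spp1* at 8689 against 3960 CPM and *Il1a* at 461 against 126 CPM. *C1qa* was lower at 424 against 1878 CPM, *Folr2* at 52.3 against 358 CPM, *Ccl8* at 28.5 against 434 CPM and *Timp2* at 29.5 against 278 CPM. *Ccl24* was at 554 against 681 CPM and *Arg1* at 2233 against 1587 CPM. The separation of these classes by *Cd163* and *Lyve1*, of which 3 UMIs suffice, is itself a part of the rule.

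On day 3 the same rule chose 1463 cells, or 31.6% (95% CI 30.3 to 33.0) of 4627, with a median of 18454 UMIs, and these had another program. Day and library cannot be told apart. *Pf4* was at 3219 CPM, a log2 ratio of day 1 over day 3 of 1.23 (95% CI 1.22 to 1.25), while *Ppbp* was at 9.96 CPM, *Arg1* at 51.4 CPM, *Ccl24* at 5.75 CPM, and *Cxcl3* at 19.3 CPM. The log2 ratios of these were 6.37, 5.44, 6.59 and 7.77, and that of *Areg* was 3.95. There were 323 *Pf4* UMIs per *Ppbp* UMI on day 3. At 3000 UMIs *Ppbp* was found in 2.40% and *Arg1* in 8.50% of the day 3 cells, and *Arg1* with *Il1b* in 0.823%. *Pf4* was selected on in both groups, so its presence on day 3 is no result, whereas the other genes were not part of the rule.

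Over 8711 genes with at least 200 UMIs, 501 were at least 2-fold higher on day 1, or 5.75%, and 2058 at least 2-fold lower, or 23.6%. The median log2 ratio of all genes was -0.39, and with this median set to 0 the counts were 850 higher and 1317 lower, so 39.2% of the calls were higher in place of 19.6%. Of 13 interleukin and related genes 13 were higher on day 1, with *Il1b* at 8535 against 159 CPM and *Il1a* at 461 against 4.14 CPM. Of 9 CXC chemokines 7 were higher and 1 lower, of 9 CC chemokines 6 and 1, and of 19 genes of hypoxia and glycolysis 9 and 0. Genes of lipid handling were lower in 7 of 13 and higher in 2, those of the clearance of dead cells lower in 6 of 9, interferon response genes in 8 of 10, and cell cycle genes in 9 of 10. *Gpnmb* was at 38.3 against 1188 CPM, *C1qa* at 424 against 2356 CPM, *Folr2* at 52.3 against 388 CPM and *Mki67*, a marker of dividing cells, at 4.55 against 98.5 CPM. *Spp1* was at 8689 CPM on day 1 and 14778 CPM on day 3, but the log2 ratio of -0.77 became -0.11 among cells with 5000 to 20000 UMIs, and that of *Gpnmb* became -4.29 from -4.95. *Mrc1* was at 463 and 371 CPM.

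Against all 2184 day 3 cells of the shared gates, the 10 genes with the highest ratios were *Cxcl3*, *Ppbp*, *Ccl24*, *Il1a*, *Cxcl5*, *Arg1*, *Serpinb2*, *Bcl2a1a*, *Il1b* and *Bcl2a1d*. The place of *Cxcl5* rests in large part on the 14 cells with fibroblast UMIs, without which it was at 18.1 CPM in the *Pf4*-dominant cells, against 0.909 CPM on day 3. *Serpinb2* encodes an inhibitor of plasminogen activators, and the *Bcl2a1* genes, near-identical copies whose reads could be split in counting, encode survival proteins. The 10 with the lowest ratios were *Hmmr*, *Spc24*, *Pbk*, *Ube2c*, *Pclaf*, *Cdca3*, *Ccna2*, *Kif15*, *Fignl1* and *Birc5*, most of them genes of cell division. Over all *Pf4*-dominant cells of day 1, *Hmmr*, *Spc24*, *Pbk*, *Kif15* and *Fignl1* had no UMI, and the other 5 had from 1 to 3. *Hmmr* was thus at least 144-fold lower than in the day 3 cells, counting 3 UMIs on day 1. *Mki67* had 76 UMIs in the *Pf4*-dominant cells.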

How the data were processed

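Single cells of day 1 and day 3 injured quadriceps were re-analysed, 1 library per day. The deposited values are UMI counts by gene for every possible barcode, which the authors had neither normalized nor filtered for cells, and the libraries were 10x Genomics 3-prime libraries. The submitters' processing notes name Cell Ranger 5.0.0 and build mm10, and the aligner's settings are not given in the sources used here. The list of possible barcodes has 737280 entries on day 1 and 6794880 on day 3, although the labels give the same kit, so chemistry may differ with the day.

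Barcodes were ranked by UMIs, and the top 7367 (day 1) and 6640 (day 3) were kept as cells, the numbers in the study's table of library quality. Cells with fewer than 1000 UMIs, fewer than 200 genes or over 7.5% mitochondrial UMIs (517 cells of day 1 and 2013 of day 3) were left out. The limits of the rule were then applied to single cells. Doublets were kept, since the threshold of Scrublet marked 2 cells, and an alternative left out the highest scores.

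UMIs were summed by group. Log2 ratios had 0.5 added to each count, and 2-fold calls were made over genes with at least 200 UMIs. With 1 library per day no test was run. Thinning drew 3000 UMIs per cell without replacement, and left out shallower cells, 3 each of the *Pf4*- and *Vcan*-dominant ones and 2 of the collagen class. The ratios were tested on simulated data. Genes named are those of 30 lists, the 12 highest and 12 lowest ratios over *Vcan*-dominant cells, the 10 highest and 10 lowest over day 3 cells of the shared gates and the 10 most variable genes, leaving out mitochondrial, ribosomal protein, hemoglobin, sex-linked and rule genes. Other genes from *Cxcl5* to *Areg* on chromosome 5 were added, and *Aldoa*, listed under 2 identifiers, was not used. The members and lists were chosen with earlier results of these data known. A few genes of these lists are not reported here. Promoter windows are from RefSeq, build GRCm38.p6. Python 3.11.15, numpy 2.4.6, scipy 1.17.1, pandas 2.3.3 and scanpy 1.11.5 were used.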

Additional observations from a re-analysis of the deposited data

Results flagged for a closer look

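*Cxcl3*, a neutrophil-attracting chemokine, differed in opposite directions between *Pf4*- and *Vcan*-dominant cells of the 2 days. The log2 ratio of *Pf4*-dominant over *Vcan*-dominant cells was 1.06 on day 1 and -1.22 on day 3. *Cxcl3* was at 4231 CPM in *Pf4*-dominant cells of day 1 and 19.3 CPM in those of day 3, so the day 3 ratio is one between low levels. The *Vcan*-dominant cells of day 3 numbered 220 and had 1974 CPM of neutrophil markers, against 119 CPM in the *Pf4*-dominant ones. On day 1 these markers were also higher in *Vcan*-dominant cells, at 1612 against 827 CPM, while *Cxcl3* was higher in *Pf4*-dominant cells. The marker list includes *S100a8* and *S100a9*, genes of the rule. A part of neutrophil transcripts in the *Cxcl3* ratios was not tested. Each day has 1 library, and the difference in *Cxcl3* between the days was not tested.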

How the results depend on the processing

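No paired analysis was possible because each day has 1 library and no replicate numbers. The number of *Pf4*-dominant cells, 1235, became 1153 without the highest doublet scores, 1155 with a minimum of 10 UMIs, 1135 where the dominant gene had at least 2 times the UMIs of the other, 819 with each cell thinned to 3000 UMIs before the rule, and 1619 with no *Lyz2* limit. The log2 ratio of *Ppbp* over *Vcan*-dominant cells, 3.11, became 3.38, 2.60 and 4.67 under the first 3 of these and 3.34 without the *Lyz2* limit, and it was 3.22 with a minimum of 3 UMIs and 3.37 with ambient UMIs subtracted. That of *Arg1*, 1.49, was 1.70 with the dominance of at least 2 times, 1.44 without the *Lyz2* limit, 1.53 with a minimum of 3 UMIs, with ambient UMIs subtracted or with cells of 5000 to 20000 UMIs only, 1.58 as a mean of single cells and 1.59 in thinned cells. Genes at least 2-fold higher and lower, 95 and 79, became 153 and 121 in thinned cells, 191 and 175 with at least 50 UMIs per gene and 1184 and 1589 with no filter. The alternatives without the *Lyz2* limit, without cells holding fibroblast UMIs and with the median day ratio set to 0 were chosen after seeing the data. Over 31 other values, all 446 pairs of value and alternative kept their sign, and 11 moved by more than 0.58 on the log2 scale.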
